A study of Mus musculus with 6 samples.

Results

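The genes described here encode the proteins of the cytosolic ribosome. They were taken from a gene expression table by name, as every row whose symbol was Rpl or Rps followed by a number, with at most 1 letter and further digits, and with no ending that marks a named pseudogene copy. The rule found 81 of the 22475 genes in the table, 46 of the large subunit (Rpl) and 35 of the small subunit (Rps). By the GENCODE M21 annotation 77 of the 81 are protein coding, and Rps4l, Rps12l2, Rps3a2 and Rps3a3 are annotated as processed pseudogenes. The rule leaves out the ribosomal stalk and a few proteins with other names (Rplp0, Rplp1, Rplp2, Rpsa and Fau among them), which are given separately.

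RNA was sequenced from Lin- cKit+ Sca1+ cells of mouse bone marrow, a sorted fraction in which haematopoietic stem cells and early progenitors are found. FLT3-ITD, a tandem duplication within the receptor tyrosine kinase FLT3 that occurs in acute myeloid leukaemia, was homozygous in the mice of both groups. The control group (FLT3-ITD) carried wild-type miR-155 and the other group (FLT3-ITD miR-155-/-, here KO) a homozygous deletion of this microRNA, so no group had normal FLT3. Each group had 3 libraries, every library was the pooled RNA of 3 mice, and the labels give no age or sex, so that each p-value measures the spread between pools.

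A ribosome is built from a large subunit, which joins amino acids, and a small subunit, which reads the mRNA. Each ribosomal protein is needed in about the same number of copies, and cells adjust their supply largely at translation: the mRNAs of these genes begin with a C followed by a run of pyrimidines, the 5' terminal oligopyrimidine (TOP) tract, through which the kinase mTORC1 and the RNA-binding protein LARP1 control them. Haematopoietic cells are sensitive to this supply. Loss of 1 copy of RPS19 and of several other members causes Diamond-Blackfan anaemia, RPS14 lies in the region lost in the 5q- form of myelodysplastic syndrome, and free RPL5 and RPL11 bind MDM2 and so stabilise p53. Transcript levels, measured here, do not report on translation.

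The start of transcription of these genes carries the shared sequence features, and the starts of a few chosen genes are shown. They include some, not all, of the genes with the smallest p-values below, and other genes besides. RefSeq start sites (GRCm38.p6) were found for 58 of the 81 genes. Whether these cells start transcription at the RefSeq sites was not tested, so a window without a long run does not show that the mRNA lacks a TOP tract. In each case the 30 bases shown run 5' to 3' from 15 before the start to 15 from it on, with the longest run of pyrimidines (C or T) in capitals. The first 5 have a run of 6 bases or more.
Rpl35 (chr2:39005117-39005146, minus strand): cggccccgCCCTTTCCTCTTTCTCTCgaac
Rpl14 (chr9:120571502-120571531, plus strand): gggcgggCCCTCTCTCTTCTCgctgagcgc
Rpl22l1 (chr3:28805493-28805522, plus strand): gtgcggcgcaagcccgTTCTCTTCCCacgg
Rps27 (chr3:90213634-90213663, minus strand): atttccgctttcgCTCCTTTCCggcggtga
Rps21 (chr2:180257364-180257393, plus strand): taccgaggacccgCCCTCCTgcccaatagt
The next 3 do not.
Rpl10 (chrX:74270801-74270830, plus strand): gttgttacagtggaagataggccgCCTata
Rpl11 (chr4:136053379-136053408, minus strand): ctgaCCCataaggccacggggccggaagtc
Rps3a1 (chr3:86142654-86142683, minus strand): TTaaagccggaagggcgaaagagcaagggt
A run of at least 6 pyrimidines in this window was found in 37 of the 58 genes (63.8%), against 32.7% of the 27025 genes with a RefSeq window. The shares were 62.9% for the large and 65.2% for the small subunit. The letters CCGGAAG or CTTCCGG, the core bound by ETS factors such as GABP, occurred within 250 bases before to 50 after the start in 24 of the 58 (41.4%), against 9.93% of all genes with a window. A match describes these letters and is not a bound site. Among tested genes, the median log2 fold change was 0.05 for the 36 with a pyrimidine run and 0.01 for the 20 without.

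The libraries held 6843129 to 9443615 counts, and 3 counts, the limit that a count of 0 allows, came to 0.326 to 0.46 CPM (counts relative to the library total, scaled by TMM factors). The microRNA hairpin itself, Mir155, was counted 2, 1 and 0 times in the control and never in the KO. For the transcript annotated at its host locus, Gm26667, the control gave 33, 48 and 36 counts and the KO 4, 14 and 4. All 10 genes of a list for the sort gate and stem cells (among them Kit and Ly6a, which encodes Sca1) were present, with a summed level of 1722 to 2320 CPM in the control and 1693 to 2192 CPM in the KO. Markers of other cells were present too. All 7 of the plasma cell markers found had a lower estimate in the KO (summed 3050 to 4407 CPM in the control, 671 to 1734 in the KO), as did all 8 neutrophil markers (608 to 755 against 338 to 527 CPM). By edgeR all 7 plasma cell and 7 of the 8 neutrophil markers had an unadjusted p under 0.05, against 3.9% of all genes tested. With the block 5 plasma cell markers and no neutrophil marker were called, against 1.36% of all genes. Without the block none of either list was called. The macrophage (45.5 to 639 against 55.7 to 440 CPM), T cell (37.9 to 68.6 against 29.8 to 48.6 CPM) and erythroid lists (12.4 to 64.6 against 8.58 to 45.2 CPM) overlapped between the groups in summed level. Lower estimates were nonetheless found for 6 of 7 T cell markers tested (3 with an unadjusted p under 0.05 and 1 called with the block, edgeR), for all 4 erythroid and 6 of 7 macrophage markers tested, and for 8 of the 10 gate and stem cell genes (median log2 fold change -0.14). No marker in these lists was at 0 in all libraries. Their part in the values below was not tested.

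No cytosolic ribosomal protein gene passed the test between the groups across all genes. Of the 81 genes 76 passed the filter on low counts, 44 of the large and 32 of the small subunit, and each of the 76 had at least 10 counts in every library. None had an adjusted p under 0.05 by edgeR's quasi-likelihood test, where 21 of 13217 genes did (0.159%, 2 higher and 19 lower in the KO). The smallest adjusted p among them was 0.909 (Rpl10). At an unadjusted p under 0.05 edgeR gave 5 of the 76, 2 of them higher, against 3.9% of all genes tested. With the replicate number as a block none of the 76 was called either (smallest adjusted p 0.305, edgeR), although the block raised the calls over all genes to 180 (1.36%). At an unadjusted p under 0.05 that fit gave 7 of the 76, against 9.37% of all genes. DESeq2 called none of the 76, where it called 0.961% of all genes. Its unadjusted p was under 0.05 for 2 of the 76, against 414 of the 13217 genes tested. Limma-voom called none of the 76 either, where it called 0.129% of all genes. Its unadjusted p was under 0.05 for 5 of the 76, against 498 of the 13217. In the authors' deposited table the smallest adjusted p of a member was 0.9999. Over all 16577 genes with an adjusted p from the authors, 106 were called. In bulk RNA, fewer cells of a type and less RNA per cell cannot be told apart, and a change shared by all transcripts would not show.

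The estimates lay close to 0, and the intervals were narrow enough to bound most differences. The median log2 fold change (KO over control) was 0.04 over the 76 genes, 0.04 for the large and 0.04 for the small subunit, beside 0.001 for all genes tested. A positive estimate was found for 48 of the 76 (63.2%), 28 of 44 large and 20 of 32 small subunit genes, against 50.2% of all genes. Leaving out the KO library of replicate 1 lowered the median to 0.01. Estimates of 71 of the 76 (93.4%) lay within 1.2-fold either way, against 81.6% of all genes tested. The 95% interval lay within 1.5-fold for 63 genes (82.9%, all genes 61.1%) and within 2-fold for 74 (97.4%, all genes 81.8%); the exceptions at 2-fold were Rps16 and Rps4l. It lay within 1.2-fold for 23 genes (30.3%, all genes 12.8%). Precision followed the level: the median standard error was 0.08 for the 38 genes at 100 CPM or more and 0.22 for the 19 under 20 CPM. Above 100 CPM no estimate exceeded 0.23 in size.

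**Figure D1:**
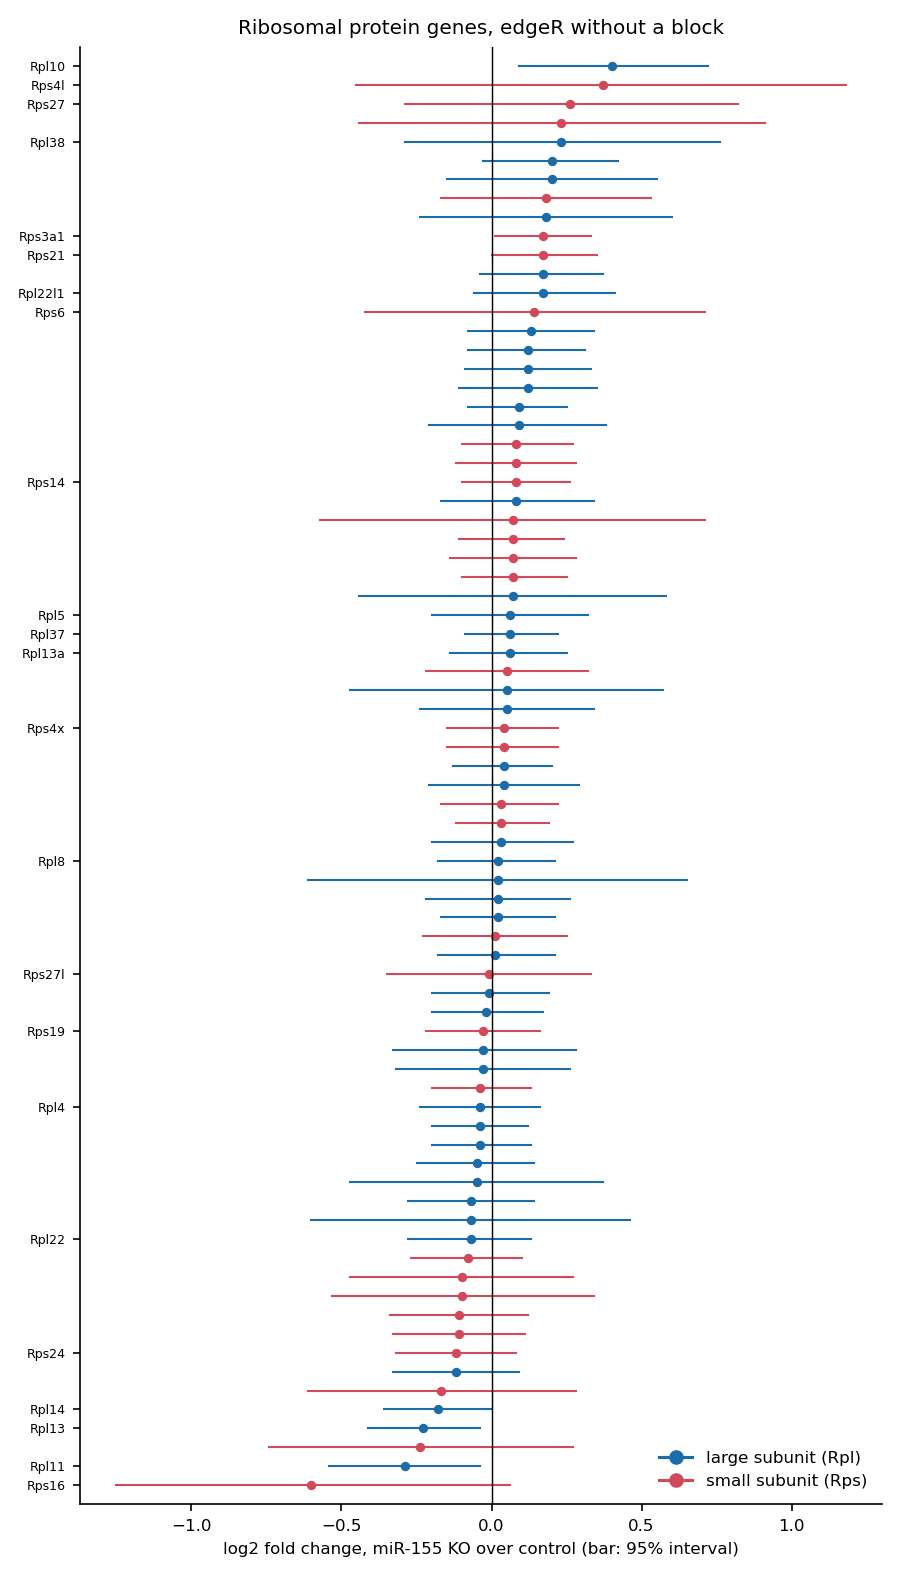
Log2 fold change of the 76 tested ribosomal protein genes (x axis, KO over control; points, edgeR estimates; bars, 95% intervals), large and small subunit, in order of the estimate, with names for genes described in the text. Most estimates sit within 1.2-fold of 0 (71 of 76), and the intervals of Rps16 and Rps4l reach beyond 2-fold.

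The part of the libraries taken by ribosomal protein transcripts differed between the groups by less than the spread between pools. Their share of all counts was 1.66, 1.78 and 1.70% in the control and 1.70, 1.77 and 1.74% in the KO. The ranges overlapped, and the largest share belonged to a control library. The means were 1.71% ± 0.0622 and 1.74% ± 0.036 (SD, n = 3 each). The Wilson 95% intervals of single libraries, which cover counting error only, were narrower than these differences (1.652 to 1.668% for the first control library, 1.773 to 1.791% for the second). The large subunit took 0.907% ± 0.0274 in the control and 0.91% ± 0.0154 in the KO, and the small subunit 0.808% ± 0.0358 and 0.827% ± 0.0207. The share of immunoglobulin genes, part of the same total, was 3.21, 2.43 and 3.73% in the control and 0.782, 0.503 and 1.53% in the KO. With these genes out of the total, the difference in the ribosomal protein share (KO minus control) turned from 0.022 to -0.016 percentage points.

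**Figure D2:**
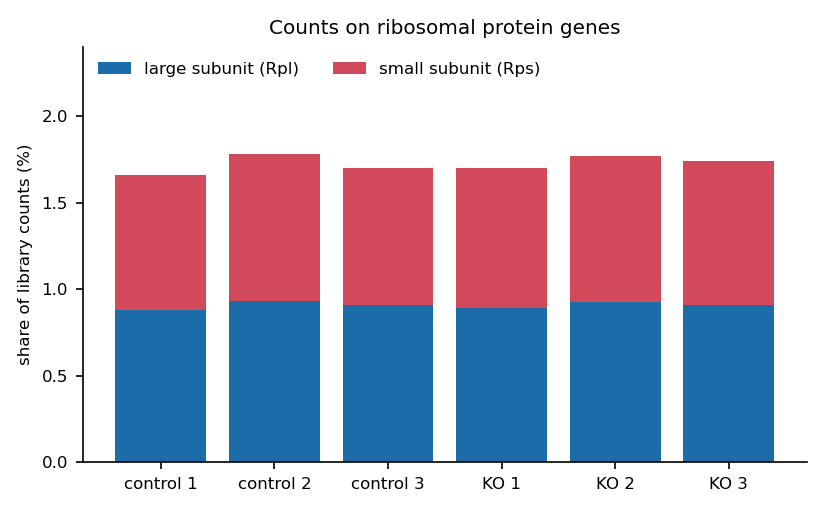
Share of all gene counts (y axis, percent) taken by ribosomal protein genes in each library, for both subunits. The control libraries lie at 1.66 to 1.78% and the KO libraries at 1.70 to 1.77% in all, and the groups overlap.

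Within that share the genes moved little between pools of 1 group. Among genes above 19.7 CPM, the lower quartile of the members, the median standard deviation of log2 CPM within groups was 0.0808 for 57 members and 0.137 for all genes. Above this floor the members and all genes were not matched in level, which precision followed, so the part of level in this difference was not tested. The most even member at 100 CPM or more was Rpl7 (0.0217), and the least even of all 76 was Rps4l (0.414). Among the same genes the median size of the log2 fold change was 0.0701 for the members and 0.073 for all. Groups did not overlap for 12 of the 76 (15.8%), against 8.22% of all genes tested. Of these 9 had higher values in every KO library (Rpl10, Rps3a1, Rps21, Rpl35, Rpl31, Rpl9, Rpl29, Rpl27a and Rpl37) and 3 lower (Rpl13, Rpl11 and Rpl14). Rpl37, for example, had 158, 165 and 165 CPM in the control and 171, 167 and 173 in the KO, a log2 fold change of 0.06 ± 0.07 (SE).

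In the large subunit the smallest p-values belonged to Rpl10, Rpl13, Rpl11 and Rpl14. Rpl10 (ENSMUSG00000008682, chromosome X, 74270812 to 74273135, GRCm38, as for all positions here) encodes a protein that joins the large subunit late in its assembly and is mutated in some T cell leukaemias. It had 70.9, 66.1 and 78.6 CPM in the control and 110, 97.0 and 78.7 in the KO. The third KO library was just above the highest control, and the other two stood well above all controls. The log2 fold change was 0.40 ± 0.14 (SE; 95% interval 0.09 to 0.72; edgeR adjusted p = 0.909), the highest of the 76. Only 14.6% of its 50-base windows were in no other annotated gene, a limit on its counts taken up below.

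Rpl13 (chromosome 8, 123102350 to 123105244) had 214, 219 and 204 CPM in the control and 195, 178 and 171 in the KO. Every KO library was below every control library. The log2 fold change was -0.23 ± 0.08 (edgeR adjusted p = 0.978). Rpl14 (chromosome 9, 120571444 to 120574654) had 325, 340 and 310 CPM against 299, 286 and 276 in the KO. Here too the groups did not overlap, with a log2 fold change of -0.18 ± 0.08 (edgeR adjusted p = 0.9995).

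Rpl11 and Rpl5 encode the pair of proteins that, with 5S rRNA, bind MDM2. Rpl11 (chromosome 4, 136028265 to 136053428) had 33.2, 34.8 and 36.4 CPM in the control and 31.3, 26.3 and 28.0 in the KO, with no overlap. Its log2 fold change was -0.29 ± 0.11 (95% interval -0.54 to -0.04; edgeR adjusted p = 0.9995). Rpl5 had 70.1, 62.0 and 65.9 CPM in the control and 65.7, 62.4 and 78.0 in the KO. These overlapped, with a log2 fold change of 0.06 ± 0.11. Neither partner passed the test, and the estimate for Rpl5 was -0.04 without KO replicate 3.

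Other large subunit genes with a known role showed overlapping groups. Rpl13a, whose protein also leaves the ribosome to silence inflammatory mRNAs after interferon-gamma, had 907, 923 and 932 CPM in the control and 1017, 933 and 920 in the KO, a log2 fold change of 0.06 ± 0.08. Rpl38, needed for translation of Hox mRNAs in the mouse embryo, had 12.1, 7.58 and 11.9 CPM against 14.1, 11.9 and 11.0, with a log2 fold change of 0.23 ± 0.22. The 95% interval for Rpl38 ran from -0.29 to 0.76, and without control replicate 2, its lowest library, the log2 fold change was 0.05. Rpl4, whose protein lines the exit tunnel, had 1900, 1911 and 1878 CPM against 1809, 1812 and 1905, and its log2 fold change was -0.04 ± 0.09. Rpl8, whose protein sits near the site of peptide bond formation, had 1070, 1041 and 978 CPM against 1062, 1053 and 1007.

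In the small subunit the smallest p-values were those of Rps3a1, Rps21, Rps16 and Rps24. Rps3a1 (chromosome 3, 86137940 to 86142702) had 154, 164 and 157 CPM in the control and 180, 178 and 175 in the KO. All KO libraries exceeded all controls, and the 3 KO values lay close together. The log2 fold change was 0.17 ± 0.07 (95% interval 0.01 to 0.33; edgeR adjusted p = 0.9995). Rps21 (chromosome 2, 180257377 to 180258445) had 141, 132 and 146 CPM against 163, 158 and 151 in the KO. The groups did not overlap, with a log2 fold change of 0.17 ± 0.07 (edgeR adjusted p = 0.9995).

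Rps16, whose protein reaches the decoding site, had the lowest estimate of the 76 and few counts. It had 5.32, 7.01 and 5.86 CPM in the control and 3.68, 2.95 and 5.38 in the KO, from 49, 61, 48, 24, 23 and 39 counts. The third KO library lay above the first control library, so the groups overlapped. The log2 fold change was -0.60 ± 0.28 (95% interval -1.25 to 0.06; edgeR adjusted p = 0.9995).

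The small subunit members tied to Diamond-Blackfan anaemia and 5q- syndrome did not pass the test, and their intervals were mostly narrow. Rps19 had 207, 230 and 197 CPM in the control and 207, 213 and 200 in the KO, a log2 fold change of -0.03 ± 0.08 with an interval of -0.22 to 0.16. Rps24 had 488, 537 and 468 CPM against 476, 445 and 452, and its log2 fold change was -0.12 ± 0.09 (interval -0.32 to 0.08). Both genes overlapped between groups. Rps14 had 500, 521 and 476 CPM against 512, 543 and 525, with a log2 fold change of 0.08 ± 0.08 (interval -0.10 to 0.26). Rps6, the substrate of the S6 kinases downstream of mTORC1, had 7.39, 9.19 and 11.6 CPM against 12.9, 9.74 and 8.54. Its libraries overlapped widely, and its log2 fold change of 0.14 ± 0.24 changed sign when single libraries were left out.

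**Figure D3:**
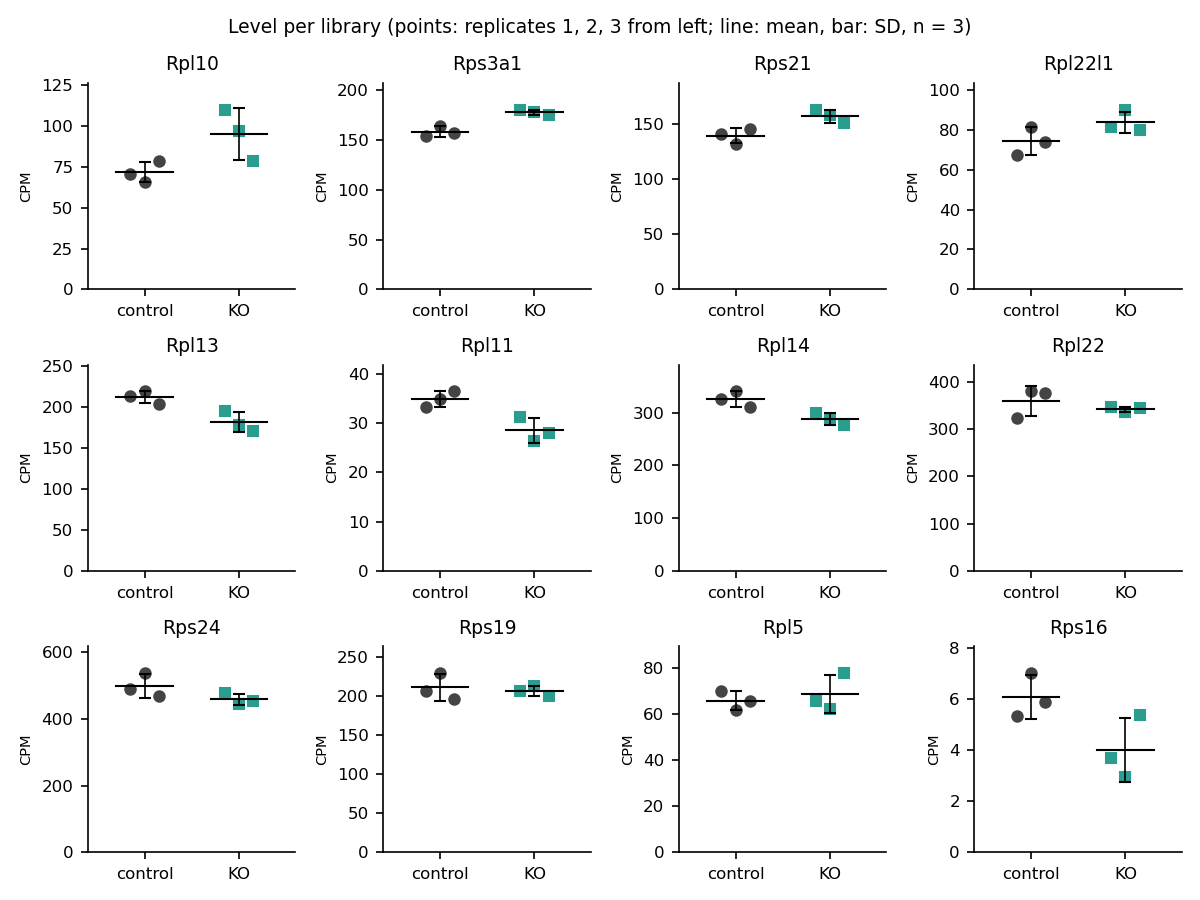
CPM (y axis, from 0) of 12 ribosomal protein genes in each control and KO library; lines and bars are the mean and SD (n = 3 per group). Rpl10, Rps3a1 and Rps21 lie higher in all KO libraries and Rpl13, Rpl11 and Rpl14 lower, while Rps24, Rps19, Rpl5, Rpl22 and Rps16 overlap.

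Some members have a paralog, which encodes a related protein or, for Rps4x, is the processed pseudogene Rps4l. The ratio of paralog to parent within a library does not depend on scaling. Exact two-sided permutation tests were run on 5 such ratios, for which 3 libraries against 3 allow no p below 0.1. Rpl22 encodes an RNA-binding member needed for the development of alpha-beta T cells, and its protein holds down the expression of its paralog Rpl22l1. Rpl22 had 323, 380 and 377 CPM in the control and 346, 336 and 344 in the KO, and Rpl22l1 had 67.5, 81.5 and 74.0 against 81.2, 89.9 and 79.8. The log2 ratio of Rpl22l1 to Rpl22 was -2.26, -2.22 and -2.35 in the control and -2.09, -1.90 and -2.11 in the KO. Every KO ratio exceeded every control ratio, with a difference of 0.24 between the means (-2.28 ± 0.07 and -2.03 ± 0.12, SD; exact permutation p = 0.1, adjusted 0.5 over the 5 ratios). Neither gene alone passed edgeR's test, with log2 fold changes of -0.07 ± 0.09 for Rpl22 and 0.17 ± 0.10 for Rpl22l1 (SE). For Rpl22l1 34.4% of the 50-base windows were in no other annotated gene, against 94.8% for Rpl22, which limits the counts behind this ratio too.

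The other ratios overlapped. Rps27l, a p53-induced paralog, stood at 94.2, 83.1 and 75.1 CPM in the control and 100, 72.9 and 78.0 in the KO. Its parent Rps27 stood at 6.30, 8.61 and 7.33 against 9.04, 10.9 and 6.75. Only 1.35% of the 50-base windows of Rps27 were in no other annotated gene, against 77.6% for Rps27l. The level of Rps27 beside its paralog is therefore uncertain. The log2 ratio differed by -0.26 (exact permutation p = 0.6, adjusted 0.75), by -0.07 without control replicate 1 and by -0.01 without KO replicate 2. The ratio of Rpl7l1 to Rpl7 differed by -0.05 (exact permutation p = 0.5) and that of Rpl36al to Rpl36a by -0.10 (exact permutation p = 0.9). For Rpl36a only 14.5% of the 50-base windows were in no other annotated gene. The ratio of the processed pseudogene Rps4l to Rps4x differed by 0.36 (exact permutation p = 0.4), and by 0.14 to 0.62 with single libraries left out. X-linked Rps4x itself had 365, 391 and 344 CPM against 365, 380 and 383. The tissue-restricted paralogs Rpl3l and Rpl39l were near the limit of detection: Rpl3l had 0, 6 and 3 counts in the control and 1, 3 and 1 in the KO, and Rpl39l had 3, 2 and 1 against 1, 1 and 1. These 2 were among the 5 members left out of the test, with the pseudogenes Rps3a3 (3 to 11 counts), Rps12l2 (5 to 14) and Rps3a2 (0 to 2).

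Levels differed far more between the genes than between the groups, although their proteins are used in about equal numbers. The deposited FPKM (counts per kb of transcript, scaled to library size) averaged over the 6 libraries ran from 2.66 (Rps4l) to 1312 (Rpl4), a 493-fold range, or 377-fold among protein-coding members. The median was 48.4 FPKM with quartiles of 21.4 and 173, and 66 of the 76 lay above the median of all genes tested (10.1 FPKM). The large subunit ran from 3.48 to 1312 FPKM with a median of 46.5, and the small subunit from 2.66 to 688 with a median of 56.7. Highest in the large subunit were Rpl4 and Rpl8 (1198 FPKM). Lowest were Rpl36a (3.48) and Rpl28 (5.41) in the large subunit and Rps4l and Rps29 (4.90) in the small. The order of the genes was nearly the same in every library (lowest Spearman rho between libraries 0.991, across genes, which are not independent). Rpl4 alone held 10.8% of all member counts and Rps3 10.2%.

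The level went with how much of a transcript is shared with other genes. Ribosomal protein genes have many processed pseudogenes, copies of the spliced mRNA set back into the genome. For each of the 75 protein-coding members tested, the share of 50-base windows of the principal transcript found in no other annotated gene was computed. The median share was 48.3%, from 1.35% (Rps27) to 100%, and 74 of the 75 shared a window with an annotated pseudogene. Rpl7a shared windows with 119 pseudogenes, and the median was 8. The 19 genes under 25% had a median level of 23.3 FPKM (3.48 to 101), the 45 from 25 to 75% a median of 54.6 (4.9 to 958) and the 11 at 75% or more a median of 276 (48.6 to 1312). Spearman's rho between the share and the FPKM was 0.53, described without a test because the points share the libraries and their depth. It was 0.62 with 100-base windows and 0.44 with counts per kb of the principal transcript, both tried after seeing the data. Where several transcripts of a gene qualified, the longest was taken. The transcript used had 5179 bases for Rps15a, 3706 for Rps20 and 2606 for Rpl7l1, all in the class at 75% or more. The effect of this choice on the shares was not tested. How reads that fit several genes were handled is not given in the sources used here, so counts of these genes are uncertain. Whether this accounts for the order of levels was not tested.

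**Figure D4:**
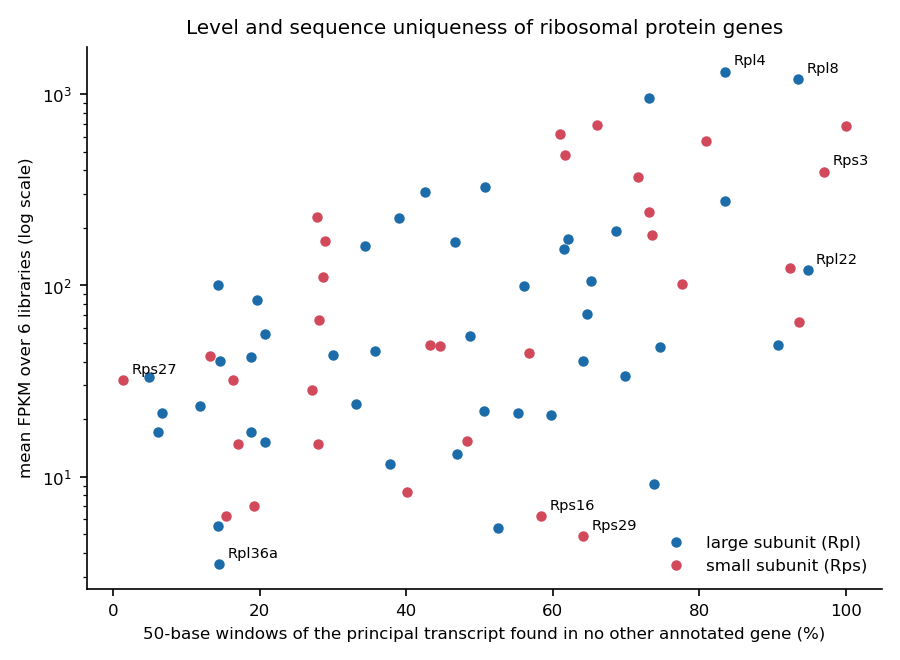
Mean deposited FPKM (y axis, log scale) of the 75 protein-coding members against the share of their 50-base windows found in no other annotated gene (x axis, percent). Genes at 75% or more lie at 48.6 to 1312 FPKM and those under 25% at 3.48 to 101.

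The differences between groups moved little with this share (Spearman's rho with the log2 fold change -0.10). The median log2 fold change was 0.06 under 25%, 0.04 from 25 to 75% and 0.02 at 75% or more. The 11 genes with the most unique sequence, Rpl4, Rpl8, Rpl22, Rps3 and Rps24 among them, all had estimates between -0.12 and 0.12. By edgeR none of the 11 had an unadjusted p under 0.05, against 3.9% of all genes tested, and 11 genes are too few to tell these apart. This class also had the highest median level (276 FPKM), and precision followed the level, so uniqueness and level cannot be told apart here. Of the 5 members with an unadjusted p under 0.05, 2 were in the lowest class (19 genes) and 3 in the middle (45 genes).

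**Figure D5:**
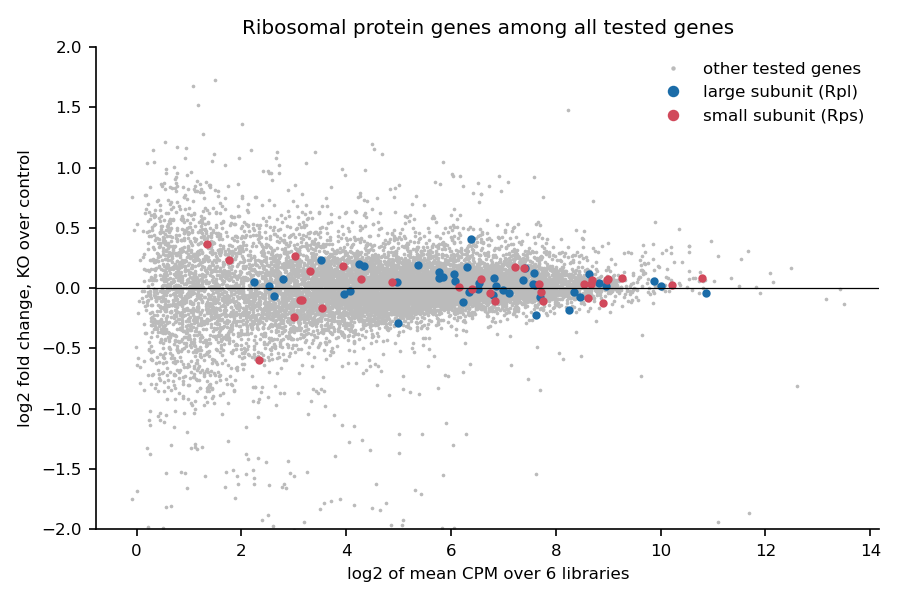
Log2 fold change (y axis, KO over control) against the log2 of the mean CPM (x axis) for all 13217 genes tested and the ribosomal protein genes; 135 genes lie outside the axis limits of 2 either way. At 100 CPM or more the members stay within 0.23 of 0.

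Genes that work with the ribosomal proteins were described from lists of their known members. None of the 8 stalk and other ribosomal protein genes outside the name rule was called by edgeR (6 positive, median log2 fold change 0.05). Rplp2, of the stalk that recruits elongation factors, had 176, 213 and 201 CPM in the control and 227, 210 and 202 in the KO. Of 16 translation factors with TOP mRNAs none was called (11 positive, median 0.04). Of 40 ribosome biogenesis factors none was called (12 positive, median -0.04), nor of 25 genes for RNA polymerase I and III subunits and their initiation factors and regulators (12 positive, median 0.00), nor of 18 regulators of ribosome supply (13 positive, median 0.06). Over all genes tested, edgeR without the block called 0.159% and gave a positive estimate for 50.2%. An unadjusted p under 0.05 by that fit was found for no gene of these 5 lists, against 3.9% of all genes. With the block 2 of the 18 regulators had one, against 9.37% of all genes, and neither passed the adjusted threshold. They were Max (log2 fold change 0.20, adjusted p = 0.495, edgeR) and Mycn (-0.33, adjusted p = 0.13, edgeR), the latter named after its values were seen. Myc, which drives ribosome production, had 120, 111 and 117 CPM against 98.7, 92.8 and 116, a log2 fold change of -0.18 ± 0.10 (edgeR adjusted p = 0.9995), with the third KO library inside the control range.

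The 77 mitochondrial ribosomal protein genes, whose products build the separate ribosome of the mitochondrion, also had a median of 0.00. A positive estimate was found for 40 of the 77, against 50.2% of all genes. Without the block edgeR called none, against 0.159% of all genes. Mrpl39 was the 1 gene of the 77 with an unadjusted p under 0.05 by that fit, against 3.9% of all genes. It had 48.3, 45.7 and 40.7 CPM in the control and 32.9, 32.0 and 30.3 in the KO, with every KO library below every control. The log2 fold change was -0.50 ± 0.10 (edgeR adjusted p = 0.228), and with the replicate block the adjusted p was 0.0467. With the block this was the 1 gene called of the 77, against 1.36% of all genes. No cytosolic member was called under either fit.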

How the data were processed

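RNA from 6 libraries (3 per group, each a pool of 3 mice) was analysed. Counts per gene were deposited by the authors as whole numbers without normalization, and FPKM values were deposited beside them. The authors also deposited a log2 fold change and an adjusted p-value for each gene, quoted only where named as theirs. The submitters' processing notes name the mm10 build, DESeq2 1.10.1 and Novoalign 2.08.01. The program that counted reads, its annotation and whether it used strand are not given in the sources used here.

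Members were found by symbol, and all 81 identifiers matched GENCODE M21. Counts were fitted with edgeR 4.0.16 in R 4.3.3 (TMM, filterByExpr with minimum count 10 and minimum total 15, quasi-likelihood F test of the group effect, 2-sided), with Benjamini-Hochberg adjustment over all 13217 genes tested and a threshold of 0.05. Alternatives used DESeq2 1.42.0, limma 3.58.1 (voom), other scalings and filters, the replicate block and each library left out. Same-numbered libraries deviated together (correlations 0.57, 0.53 and 0.22 over all genes tested), so the numbers of the titles were taken as pairs from the data. Over the members alone these correlations were 0.22, 0.20 and -0.02. Start windows came from RefSeq (GRCm38.p6). Fits were tested on simulated data.

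Named genes were those with a known role, the 4 genes of each subunit with the smallest p, the 2 highest and 2 lowest of each subunit by FPKM, the 2 largest changes each way, and the 2 smallest p of each other list. Results for a few of these genes are not reported here. Rpl37 was named outside this rule after its values were seen, as were the genes listed by overlap or uniqueness. The members and lists were chosen with earlier results of these data known.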

Additional observations from a re-analysis of the deposited data

How the results depend on the processing

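No cytosolic ribosomal protein gene was called under any of the 14 alternatives, and the median log2 fold change of the members stayed above 0 in each (0.013 to 0.049 with single libraries left out). The number of genes called over the whole table moved from 21 to 180 with the replicate block, 127 with DESeq2 and 97 without the filter on low counts. With single libraries left out it ran from 0 to 27: 0 without control replicate 1 or 3, 9 without control replicate 2, and 16, 8 and 27 without KO replicates 1, 2 and 3. The block changed the call of 1 named gene, Mrpl39 (log2 fold change -0.50 in both fits), and of no other. The difference between the subunits' medians, -0.001, ran from -0.016 to 0.017 with single libraries left out, and that between the groups' shares of counts, 0.022 percentage points, from -0.005 to 0.056 (-0.016 with immunoglobulin genes out of the total). Of 574 values for 41 named genes, 559 kept their direction and side of the threshold, and 14 changed sign, all with 1 library left out. Their ranges over these fits were -0.03 to 0.33 for Rps6, -0.15 to 0.08 for Rps27l, -0.07 to 0.02 for Rpl7l1, -0.16 to 0.19 for Rpl36a, -0.07 to 0.04 for Rps19, -0.19 to 0.06 for Rpl28, -0.01 to 0.05 for Rpl8 and -0.04 to 0.12 for Rpl5. The single values were -0.001 and -0.03 for Rps6, 0.08 and 0.04 for Rps27l, 0.02 for Rpl7l1, -0.16 for Rpl36a, 0.04 for Rps19, 0.03 and 0.06 for Rpl28, -0.01 for Rpl8 and -0.04 for Rpl5. The log2 ratio of Rpl36al to Rpl36a differed by -0.32 to 0.19, that of Rps27l to Rps27 by -0.40 to -0.01 and that of Rps4l to Rps4x by 0.14 to 0.62. The cause of these shifts was not tested. Depth limits the 19 members under 20 CPM, whose median standard error was 0.22.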

Other observations

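Rows named as pseudogene copies of ribosomal protein genes, which the name rule leaves out, numbered 164. Together they held 0.0274% ± 0.00132 of the counts in the control libraries and 0.0298% ± 0.0002 in the KO (SD, n = 3 each). By library the share was 0.0265, 0.0289 and 0.0268% in the control and 0.0296, 0.0297 and 0.0300% in the KO, without overlap. The total includes the immunoglobulin genes, whose share was lower in every KO library, and the share without them is not given here. Of these rows 25 passed the filter on low counts. None was called by edgeR, which called 0.159% of all genes tested. An unadjusted p under 0.05 was found for 2 of the 25, against 3.9% of all genes. A positive estimate was found for 15 of the 25, against 50.2% of all genes. The median log2 fold change of these rows was 0.14, beside 0.001 for all genes tested. Their reads cannot be told apart from those of the parent genes where the sequence is the same, so these values are uncertain.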
